A study of Gallus gallus with 6 samples.

Results

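The genes described here encode actin, nonmuscle myosin and the proteins that bind actin filaments or couple them to integrins at focal adhesions. They were chosen by name: 46 gene symbols, each sought as an exact match among the symbols of the array's annotation. Of the 46, 44 were on the array, covered by 107 probe sets, and 41 passed a filter on dim signal, out of 13009 named genes on the array of which 8122 passed the same filter. LMOD1 and SMTN were not named on the array, and FLNA, SYNPO2 and PDLIM3 did not pass the filter. Each gene was read from its probe set with the highest mean over the 6 arrays.

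The cells were dermal myofibroblasts that grew out of explanted skin of day 10 chicken embryos of the brown Leghorn breed, kept in medium with 4% fetal bovine and 2% chicken serum. One group of 3 cultures received TGFBR1 Kinase Inhibitor II, a compound that inhibits the kinase activity of TGFBR1, the type I receptor for TGF-beta, at 500 nM for 48 hours, and the other group of 3 received only the solvent, DMSO, at 0.1%. No treatment time is recorded for the DMSO group and no DMSO content for the inhibitor group. Both groups came from the same kind of serum-fed primary culture. The labels do not say how many embryos each culture was drawn from, and RNA was measured on 1 Affymetrix chicken array per culture. By the series title, the question was which gene expression program TGF-beta controls here.

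A focal adhesion is a plaque where integrins, the receptors for extracellular matrix, are tied to bundles of actin filaments called stress fibres. Talin and kindlin bind the integrin tails, vinculin, paxillin and zyxin join the plaque, alpha-actinin and filamin crosslink the filaments, and nonmuscle myosin II pulls on them. In myofibroblasts these bundles are heavy and contractile, and TGF-beta is known to promote them. Many of the genes are known targets of serum response factor, whose coactivators respond to the pool of unpolymerised actin.

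The deposited values are log2 intensities, so a difference of 1 is a 2-fold change. All 12 fibroblast and myofibroblast markers reached a log2 value of 4 in at least 3 arrays. So did 2 of 8 for skeletal muscle, 1 of 6 for endothelium and 1 of 5 for keratinocytes. For blood cells it was 4 of 5, and for melanocytes and nerve 1 of 5. The fibroblast and myofibroblast list summed to 17.49 to 17.56 in DMSO and 17.35 to 17.51 in inhibitor arrays. That sum is carried by its brightest genes, such as VIM at 15.76 in both groups, and can hide shifts of dimmer ones. Of the 12, PDGFRB rose, averaging 8.48 with DMSO and 9.68 with the inhibitor (limma without a replicate block, adjusted p 0.00919). TWIST2 fell, at 11.50 and 10.91 (limma adjusted p 0.035), and no other marker of the list passed in that fit. Within the list ACTA2 averaged 7.43 with DMSO and 7.89 with the inhibitor, under the median level of all tested genes, 8.90. TAGLN averaged 13.63 and 13.45. The summed level of the blood list was 8.16 to 8.43 in DMSO and 8.70 to 9.14 in inhibitor arrays, and that of the melanocyte and nerve list 7.74 to 8.69 and 8.96 to 9.35, whereas the endothelial list stood at 6.19 to 6.50 and 5.78 to 6.08. The melanocyte and nerve sum was carried by MITF, which averaged 8.11 with DMSO and 9.08 with the inhibitor. DCT, TYR, PMEL and SOX10 averaged under 4 in both groups. The endothelial sum rested mainly on PECAM1, which averaged 5.53 with DMSO and 4.70 with the inhibitor (limma adjusted p 0.0409). CDH5, KDR, TEK, TIE1 and EMCN averaged under 4 in both groups. In the blood list PTPRC was the brightest, at 7.62 and 8.36. CD74 and CTSS also averaged higher with the inhibitor, whereas CSF1R averaged lower, at 5.26 and 5.05. The skeletal muscle list summed to 13.07 to 13.83 in DMSO and 11.74 to 12.19 in inhibitor arrays, and the keratinocyte list overlapped between groups at 5.67 to 6.42 and 5.64 to 6.45. The part of other cell types in the results was not tested, and in cultured bulk RNA fewer cells of a type and less RNA per cell cannot be told apart. The array's ACTB controls read RNA integrity as the excess of the 3′ over the 5′ probe set, which was 1.43 ± 0.05 with DMSO and 1.57 ± 0.08 with the inhibitor (log2, SD, n = 3), at p = 0.1 in a two-sided exact permutation test, which can go no lower here. The second principal component, 18.3% of the variance, separated both arrays of replicate 2 from the remaining 4.

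Most genes of the adhesion machinery differed little between inhibitor and DMSO, and a few stood apart. GAS2 and the formin FHOD3 fell far, the alpha-actinin binding protein PDLIM4 fell about as much in every replicate, and moesin, MSN, fell modestly. Testin, TES, and nonmuscle myosin IIB, MYH10, rose modestly. These were the 6 calls among the 41 tested members, 2 higher and 4 lower (limma, adjusted p under 0.05). That is 14.6% of members, beside 15.6% of all 8122 tested genes (8.16% higher and 7.49% lower), so the members were called about as often as genes at large. GAS2 and FHOD3 passed the filter only through their DMSO arrays and therefore had to differ between the groups, so their calls add nothing to the count. The median log2 difference was 0.06 over the members and 0.01 over all tested genes, and the median size was 0.25 and 0.24. In 32 of 41 members, 78%, the difference was under 0.5 on the log2 scale, against 75.9% of all tested genes. The 95% interval of the difference lay within 2-fold either way for 32 members.

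The labels name no pairing of the cultures, but arrays of equal replicate number deviated alike from their group means. What equal numbers shared was not tested. A fit with the replicate number as a block called 13 members, 7 higher and 6 lower. That is 31.7% of members beside 31.6% of all tested genes (16.5% higher and 15.1% lower). The 7 that passed only with the block were CNN2 and NEXN, lower, and TLN1, ZYX, TNS1, PDLIM5 and CFL2, higher. In 13 members, again 31.7%, the DMSO and inhibitor arrays did not overlap, against 38.6% of all tested genes. By sign alone, 51% of all tested genes were higher with the inhibitor. Among the roles this was so for 4 of 6 actins, myosins and monomer binders, 2 of 7 crosslinkers and stress fibre proteins, 10 of 13 integrin adaptors and kinases, 6 of 8 LIM proteins and 2 of 7 proteins of filament assembly and membrane linkage. The calls in these roles, in that order, were 1, 1, 1, 1 and 2 without the block and 1, 3, 4, 2 and 3 with it. GAS2, among the crosslinkers, and FHOD3, in the last role, are in these counts and in both counts of 13, although they had to differ.

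**Figure D1:**
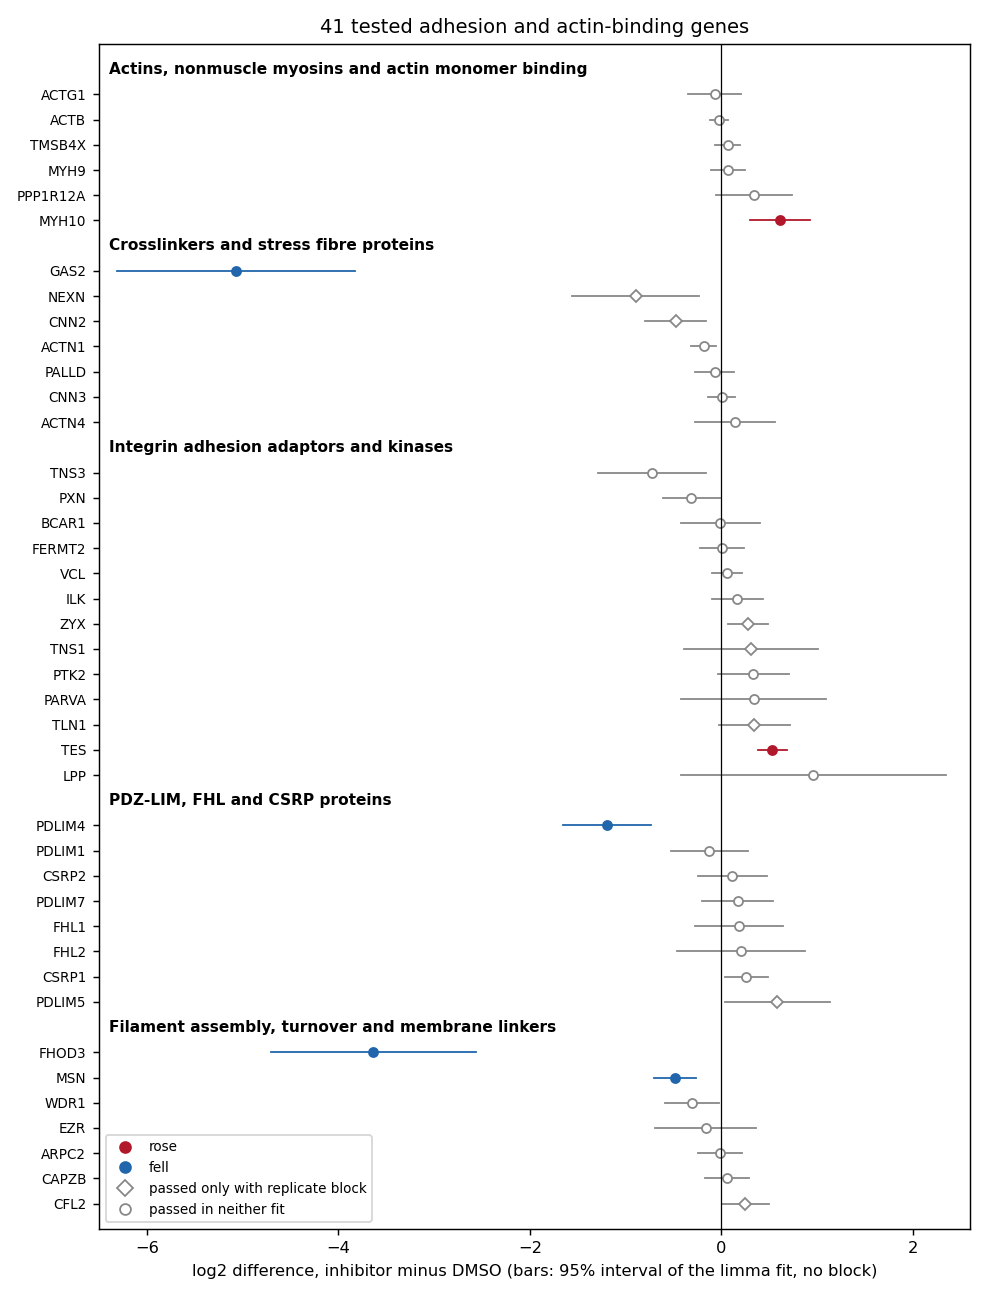
The horizontal axis gives the log2 difference, inhibitor minus DMSO, of the 41 tested members ordered within 5 roles, with bars for the 95% interval. Filled symbols rose or fell in the fit without a block, diamonds passed only with the replicate block, and GAS2 and FHOD3 lie far to the left of all the others.

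The actins among the members, ACTB and ACTG1, differed little. Beta-actin, ACTB, read 15.92, 15.91 and 15.88 in DMSO replicates 1 to 3 and 15.89, 15.89 and 15.87 in the inhibitor replicates. The groups overlapped, and the difference was -0.02 ± 0.04 (SE; limma adjusted p 0.755; 95% interval -0.12 to 0.07). These values lie next to the highest on the arrays, where probe sets can respond less than in proportion. The dimmer ACTB probe sets that were tested gave 0.04 ± 0.10 and -0.10 ± 0.20, and did not pass either. Of the array's ACTB controls, which were left out of the test, the 5′ probe set read 14.47, 14.48 and 14.48 with DMSO and 14.33, 14.38 and 14.20 with the inhibitor, and the middle one averaged 15.02 and 14.90. In both of these controls every inhibitor array lay below every DMSO array, though barely in the middle one. The 3′ control averaged 15.90 and 15.87 and overlapped between the groups. The 5′ and 3′ readings are those of the integrity measure above. Gamma-actin, ACTG1, read 14.38, 14.66 and 14.62 with DMSO and 14.60, 14.58 and 14.28 with the inhibitor. Those arrays also overlapped, with a difference of -0.07 ± 0.12 (limma adjusted p 0.743). The probes of that probe set can also bind other transcripts. A dimmer ACTG1 probe set without that limit gave -0.11 ± 0.08 and did not pass either (limma adjusted p 0.437). Thymosin beta-4, TMSB4X, which holds actin monomers in reserve, stood at 0.06 ± 0.05 and likewise near the top of the scale.

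Nonmuscle myosin II, the motor of stress fibres, is built from different heavy chains. MYH10, the heavy chain of myosin IIB, read 14.25, 13.98 and 14.51 in the DMSO arrays and 14.88, 14.81 and 14.90 in the inhibitor arrays. Every inhibitor array lay above every DMSO array, and the inhibitor arrays lay closer together than the DMSO arrays. MYH10 rose 1.53-fold (0.61 ± 0.13; limma adjusted p 0.0279). The call was lost without DMSO 1 (limma adjusted p 0.0898), inhibitor 1 (0.0870), inhibitor 2 (0.0634) or inhibitor 3 (0.0814), and a dimmer MYH10 probe set passed only with the block (0.90 ± 0.28; 0.0843 without and 0.00640 with it). MYH9, the heavy chain of myosin IIA, read 13.41, 13.32 and 13.40 with DMSO and 13.51, 13.50 and 13.33 with the inhibitor. Its groups overlapped at a difference of 0.07 ± 0.07 (limma adjusted p 0.576; 95% interval -0.10 to 0.25). PPP1R12A, the targeting subunit of the phosphatase that relaxes myosin, stood at 0.34 ± 0.16 and did not pass with or without the block (limma adjusted p 0.0522 and 0.226). A slightly dimmer PPP1R12A probe set passed with the block (0.30, SE with the block 0.07, limma adjusted p 0.0353), and the others tested did not.

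GAS2 showed the largest difference of the 41. It encodes a protein that binds both actin filaments and microtubules and was first described in growth-arrested mouse fibroblasts. GAS2 read 9.07, 7.51 and 9.57 in DMSO replicates 1 to 3, and 3.74, 3.36 and 3.86 in the inhibitor replicates. All inhibitor arrays lay under 4, in the range where dim values crowd, and replicate 2 was the lowest of both groups. The log2 difference was -5.07 ± 0.52, a size that depends on that floor, so no fold is given. Since the filter let GAS2 in through its DMSO arrays alone, its call is read from the fit with no filter, where it also fell (limma adjusted p 0.00967). The fall rests on this probe set, since the other GAS2 probe set averaged 2.42 with DMSO and 2.39 with the inhibitor, at the floor.

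FHOD3, a formin that assembles actin filaments and is best known from sarcomeres of heart muscle, followed with 7.29, 5.60 and 6.83 in DMSO arrays and 2.81, 2.67 and 3.35 in inhibitor arrays. Here too the inhibitor arrays all lay at the floor and replicate 2 gave the lowest value of each group. The log2 difference was -3.63 ± 0.45, again set in part by the floor, and FHOD3 also fell in the fit with no filter (limma adjusted p 0.0163). Its 3 dimmer probe sets did not pass the filter, although the brightest of them averaged 4.36 with DMSO and 3.41 with the inhibitor.

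PDLIM3, the alpha-actinin binding protein ALP of muscle Z-discs, is given here although it did not pass the filter and was singled out after its values were seen. It read 5.98, 3.44 and 5.61 with DMSO and 2.92, 2.84 and 2.83 with the inhibitor. The DMSO arrays were all higher than the inhibitor arrays, and DMSO 2 was again the lowest of its group. With no filter the difference was -2.14 ± 0.65 and did not pass (limma adjusted p 0.192).

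FHOD3 and PDLIM3 are best known from muscle, and the skeletal muscle markers are given beside them. MYOD1, MYOG, MYF5, DES, TNNI2 and MYL1 all had group means under 4 in both groups. TNNT3 averaged 4.42 with DMSO and 4.84 with the inhibitor. The summed level of the list was carried by ACTA1, skeletal alpha-actin, which read 13.82, 13.06 and 13.10 in DMSO and 12.03, 12.17 and 11.71 in inhibitor arrays and fell 2.56-fold (-1.36 ± 0.23; limma adjusted p 0.0132).

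Among the other crosslinkers and stress fibre proteins, no tested member passed without the block. Alpha-actinin ACTN1, the main crosslinker of stress fibres, read 15.11, 15.04 and 15.03 with DMSO and 14.83, 14.85 and 14.94 with the inhibitor. The groups did not overlap, but the difference of -0.19 ± 0.05 missed the threshold (limma adjusted p 0.0679) and passed with median centring of the arrays (0.0423). Calponin CNN2, which binds actin and dampens myosin, read 12.80, 12.46 and 12.44 with DMSO and 12.18, 12.19 and 11.90 with the inhibitor. The groups did not overlap either, and CNN2 passed only with the block (-0.48 ± 0.13; limma adjusted p 0.0625 without and 0.0127 with it).

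Nexilin, NEXN, a filament-binding protein of adhesions and Z-discs, read 8.86, 8.19 and 7.74 in DMSO arrays and 7.39, 7.38 and 7.33 in inhibitor arrays. The DMSO arrays were spread widely and the inhibitor arrays hardly at all. With all 6 arrays NEXN passed with the block and not without it (-0.90 ± 0.28; limma adjusted p 0.0311 and 0.0836). Without a block it passed when DMSO 3 was left out (-1.16; limma adjusted p 0.0440) and as the mean of its probe sets (-0.89; 0.0467). Its dimmer probe sets gave -0.77 ± 0.20 and -0.99 ± 0.33. Calponin CNN3 stood at 0.00 ± 0.06, with a 95% interval of -0.14 to 0.14. Palladin, PALLD, which organises actin bundles, stood at -0.07 ± 0.08 and ACTN4 at 0.14 ± 0.17. The only FLNA probe set averaged 2.44 with DMSO and 2.35 with the inhibitor, and that of SYNPO2 2.10 and 2.11, so neither gave a usable level for filamin A or synaptopodin-2.

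**Figure D2:**
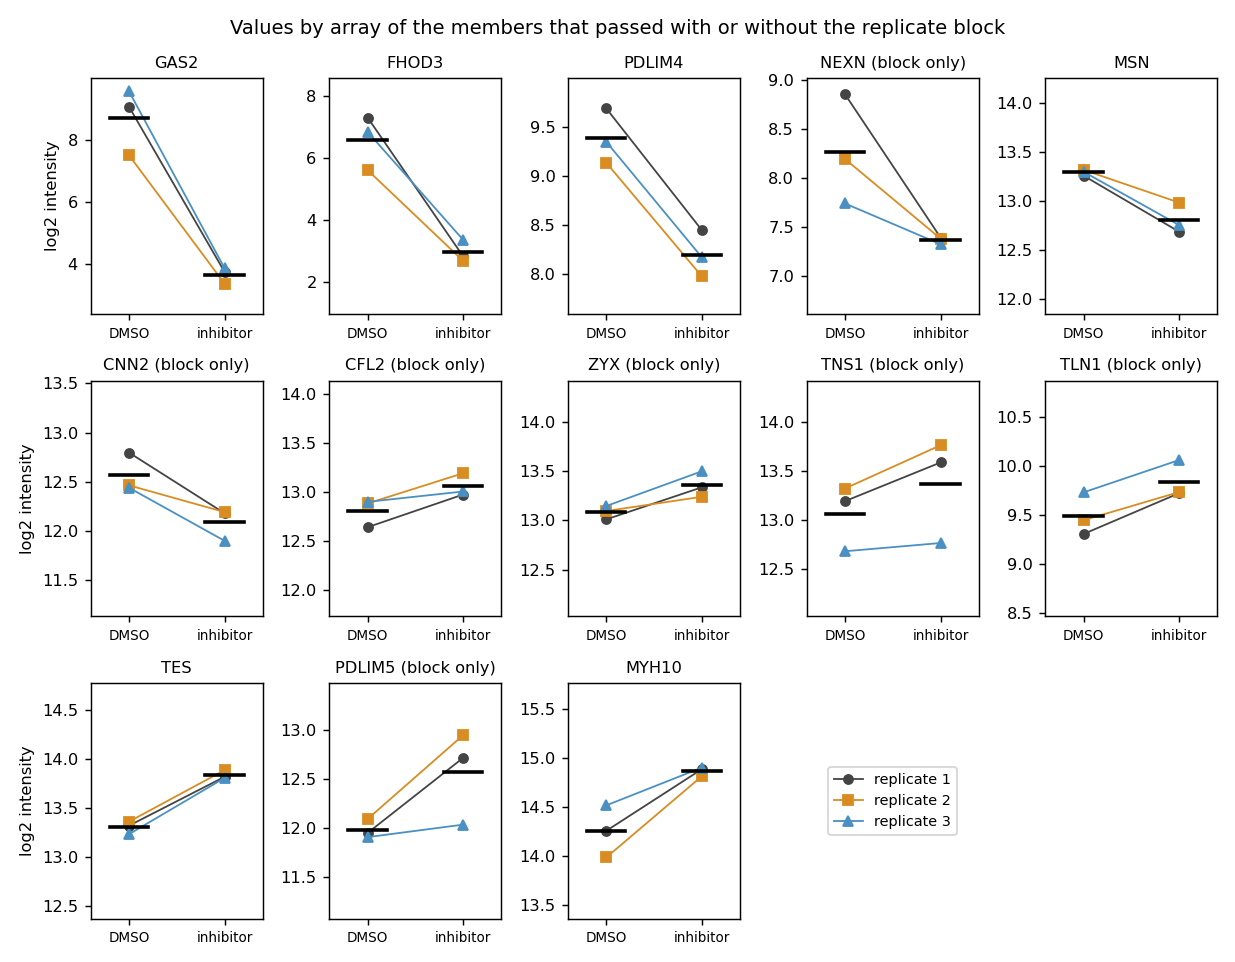
Each panel gives the log2 intensity of 1 member in the 3 DMSO and 3 inhibitor arrays, with lines joining equal replicate numbers and thick bars for the group means. The panels of GAS2 and FHOD3 have a wider vertical range than the others, and in all 13 panels the 3 lines slope the same way.

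The integrin-proximal core was measured by talin, kindlin, ILK, parvin and vinculin. Talin, TLN1, which binds and activates integrin beta tails, read 9.31, 9.45 and 9.73 with DMSO and 9.72, 9.73 and 10.06 with the inhibitor. The groups overlapped by a small margin, yet within each replicate number the inhibitor array was higher, by 0.42, 0.29 and 0.33. TLN1 passed only with the block (0.34 ± 0.16; limma adjusted p 0.202 without and 0.0290 with it). Kindlin-2, FERMT2, talin's partner on the integrin tail, stood at 0.01 ± 0.10, with a 95% interval of -0.22 to 0.24.

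Vinculin, VCL, which reinforces the link from talin to actin, read 13.68, 13.57 and 13.61 in DMSO arrays and 13.62, 13.76 and 13.65 in inhibitor arrays. The groups overlapped, and the difference was 0.06 ± 0.07 (limma adjusted p 0.629; 95% interval -0.10 to 0.21). The dimmer VCL probe sets gave 0.01 ± 0.17 and 0.12 ± 0.09. ILK, the pseudokinase at the centre of the complex with parvin, stood at 0.17 ± 0.11 and parvin, PARVA, at 0.34 ± 0.31. The signalling members PTK2, focal adhesion kinase, and BCAR1, the docking protein p130Cas, stood at 0.33 ± 0.15 and -0.01 ± 0.17, and the scaffold paxillin, PXN, at -0.31 ± 0.12. None of ILK, PARVA, PTK2, BCAR1 and PXN passed with or without the block.

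TES, the clearest rise of the set, encodes testin, a LIM protein of adhesions and stress fibres that binds zyxin. It read 13.32, 13.36 and 13.23 with DMSO and 13.82, 13.89 and 13.81 with the inhibitor. The groups were far apart relative to their spread, and TES rose 1.45-fold (0.53 ± 0.06; limma adjusted p 0.00392). A dimmer TES probe set gave 0.27 ± 0.44, and the mean of both probe sets did not pass (0.40; limma adjusted p 0.303).

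Zyxin, ZYX, a LIM protein that moves to strained stress fibres, read 13.01, 13.10 and 13.15 in DMSO arrays and 13.34, 13.24 and 13.50 in inhibitor arrays. The groups did not overlap, and ZYX passed only with the block (0.28 ± 0.09; limma adjusted p 0.0859 without and 0.0289 with it). With the block a dimmer ZYX probe set passed too (0.49, SE with the block 0.10, limma adjusted p 0.0221). Another did not (0.20, SE with the block 0.09, limma adjusted p 0.179). LPP, a zyxin relative, varied more than any other tested adaptor, with 6.35, 5.30 and 5.85 against 7.12, 5.54 and 7.72. Its difference of 0.96 ± 0.58 did not pass (limma adjusted p 0.327, and 0.0786 with the block). A dimmer LPP probe set passed with the block (0.76, SE with the block 0.18, limma adjusted p 0.0291).

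Tensins tie actin to integrin tails at the more mature, fibrillar adhesions. Tensin TNS1 read 13.19, 13.32 and 12.68 with DMSO and 13.59, 13.76 and 12.76 with the inhibitor. Replicate 3 was the lowest of both groups, and the groups overlapped. TNS1 passed only with the block (0.31 ± 0.29; limma adjusted p 0.543 without and 0.0481 with it). The other TNS1 probe sets have probes that can match several transcripts, of TNS1 or of other genes. Those tested rose without the block, by 0.93 ± 0.14 (limma adjusted p 0.00901) and 0.50 ± 0.12 (0.0422). The brighter of these read 10.82, 11.06 and 11.05 with DMSO and 11.76, 12.17 and 11.79 with the inhibitor, without the low replicate 3 of the brightest probe set, and the mean of the tested probe sets passed at 0.58 (0.0327). Tensin TNS3 read 8.47, 8.06 and 7.82 with DMSO and 7.19, 7.77 and 7.21 with the inhibitor. It moved the other way without overlap but did not pass (-0.73 ± 0.23; limma adjusted p 0.0952, and 0.0512 with the block), and its dimmer probe sets gave 0.08 ± 0.25 and -0.33 ± 0.18.

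The PDZ-LIM proteins bind alpha-actinin through a PDZ domain and recruit partners through LIM domains. PDLIM4, also called RIL, read 9.69, 9.14 and 9.35 in DMSO arrays and 8.45, 7.98 and 8.17 in inhibitor arrays. The groups did not overlap, and the replicate numbers differed by nearly the same amount, -1.24, -1.16 and -1.18. PDLIM4 fell 2.29-fold (-1.19 ± 0.19; limma adjusted p 0.0111). A second PDLIM4 probe set fell by 1.19 ± 0.21 (limma adjusted p 0.0156) and the dimmest of its probe sets gave -0.39 ± 0.20 (0.249).

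PDLIM5, or ENH, which also binds protein kinase C, read 11.95, 12.09 and 11.90 with DMSO and 12.71, 12.94 and 12.03 with the inhibitor. Inhibitor 3 lay among the DMSO arrays, while inhibitor 1 and 2 lay above them. PDLIM5 passed with the block (0.58 ± 0.23; limma adjusted p 0.15 without and 0.0397 with it) and, without a block, when inhibitor 3 was left out (0.85; 0.0138). Of its 3 other tested probe sets 2 rose, by 0.96 ± 0.20 (limma adjusted p 0.0241) and 0.78 ± 0.19 (0.0422), and the other stood at 0.65 ± 0.32 (0.238). The probes of all 3 can also bind other transcripts. As the mean of its tested probe sets PDLIM5 did not pass without the block.

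The rest of the LIM proteins did not pass in either fit. PDLIM1 stood at -0.13 ± 0.17 and PDLIM7, or enigma, at 0.17 ± 0.16. FHL1 and FHL2, built almost wholly of LIM domains, are cofactors that shuttle between adhesions and nucleus, and stood at 0.18 ± 0.19 and 0.21 ± 0.28. The cysteine-rich proteins CSRP1 and CSRP2, of smooth muscle and fibroblast filaments, stood at 0.26 ± 0.09 (limma adjusted p 0.122) and 0.11 ± 0.15.

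**Figure D3:**
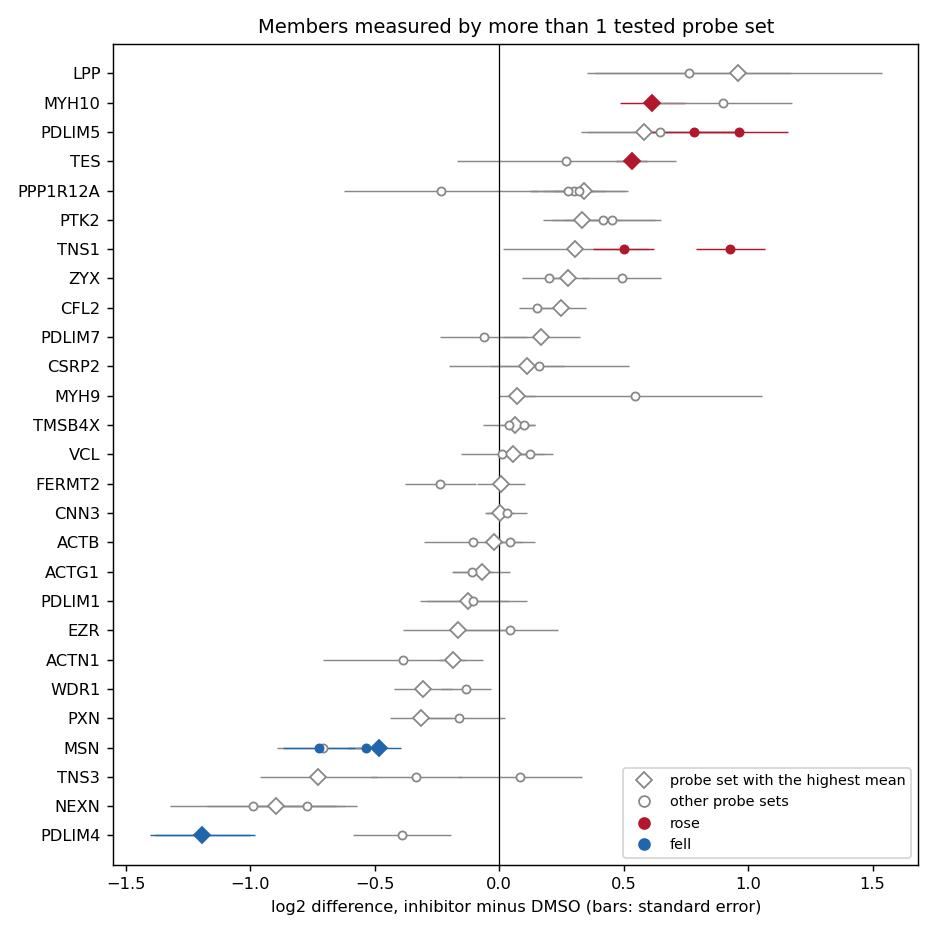
Each row is 1 of the 27 members with several tested probe sets, and the horizontal axis gives the log2 difference of each probe set, inhibitor minus DMSO, with its standard error. Diamonds mark the probe set with the highest mean, and filled symbols rose or fell without the block; for TNS1 and PDLIM5 the filled symbols are the dimmer probe sets.

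Over all probe sets of the members, 84 were tested, of which 6 rose and 7 fell, 15.5% beside 13.8% of the 16567 probe sets tested (7.27% higher and 6.51% lower). In 6 of the 27 members with several tested probe sets at least 1 had the sign opposite to the brightest one (ACTB, PPP1R12A, FERMT2, TNS3, PDLIM7 and EZR), and none of these genes was called by its brightest probe set. In 6 of the 27 the call differed (MYH10, TES, TNS1, PDLIM4, PDLIM5 and MSN), each time between a called and an uncalled probe set of the same sign. With the block the call differed in 7 of the 27 (PPP1R12A, NEXN, ZYX, TES, LPP, PDLIM4 and CFL2).

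Among member proteins that build, cap or cut filaments, FHOD3 was the only call, and it passed the filter only through its DMSO arrays. Muscle-type cofilin CFL2, which severs filaments, read 12.64, 12.89 and 12.90 with DMSO and 12.98, 13.19 and 13.01 with the inhibitor. The groups did not overlap, and CFL2 passed only with the block (0.25 ± 0.10; limma adjusted p 0.161 without and 0.0455 with it). The probes of that probe set can match several transcripts, of CFL2 or of other genes. Another CFL2 probe set without that limit was almost as bright. It did not pass with the block (0.15, SE with the block 0.06, limma adjusted p 0.121) or without it. WDR1, which helps cofilin disassemble filaments, stood at -0.31 ± 0.12 and passed when DMSO 2 was left out (-0.42; limma adjusted p 0.0478). The capping protein subunit CAPZB stood at 0.06 ± 0.10 and ARPC2, a subunit of the Arp2/3 complex that branches filaments, at -0.02 ± 0.10, with a 95% interval of -0.25 to 0.22.

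Ezrin and moesin link the actin cortex to the cell membrane. MSN read 13.26, 13.32 and 13.30 in DMSO arrays and 12.69, 12.98 and 12.75 in inhibitor arrays. The DMSO arrays were within 0.1 of each other and all lay above the inhibitor arrays. MSN fell 1.4-fold (-0.48 ± 0.09; limma adjusted p 0.0184), by a probe set whose probes can also bind other transcripts. Dimmer MSN probe sets fell by 0.53 ± 0.08 (limma adjusted p 0.00778) and 0.72 ± 0.14 (0.0228), and another missed the threshold at -0.71 ± 0.18 (0.0527). The probes of these can match several transcripts, of MSN or of other genes. The MSN probe sets without that limit lay at the floor in both groups. The call of the brightest probe set was kept without inhibitor 2 and lost on leaving out each of the other 5 arrays in turn (limma adjusted p 0.0571 to 0.0662). EZR read 9.94, 9.88 and 9.72 with DMSO and 9.46, 10.18 and 9.41 with the inhibitor. Inhibitor 2 was the highest of all 6 arrays and the groups overlapped, at -0.17 ± 0.22 (limma adjusted p 0.673).

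Closely related members were set against each other by the difference of their log2 values within each array, which was then compared between groups for 10 pairs. In 5 of the 10 pairs the DMSO and inhibitor arrays did not overlap, beside 38.6% of all tested genes taken singly. The share among pairs of genes at large was not computed, so the 5 are not read as a result about the pairs. MYH10 moved up relative to MYH9 by 0.54 ± 0.15 and CNN3 relative to CNN2 by 0.48 ± 0.17. ACTN4 moved up relative to ACTN1 by 0.33 ± 0.13, but was itself dim, at 5.59 with DMSO and 5.73 with the inhibitor. PDLIM4 moved down relative to PDLIM1 (-1.07 ± 0.11), as did TNS3 relative to TNS1 (-1.03 ± 0.29). Each of these reached p = 0.1 in an exact two-sided permutation test, the smallest that 3 against 3 arrays can give, and 0.2 after adjustment over the 10 pairs, so no pair could pass a threshold of 0.05. The pairs ACTG1 and ACTB (-0.05 ± 0.13), FHL2 and FHL1 (0.02 ± 0.44), CSRP2 and CSRP1 (-0.15 ± 0.19), MSN and EZR (-0.32 ± 0.18) and PDLIM5 and PDLIM7 (0.41 ± 0.40) overlapped.

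**Figure D4:**
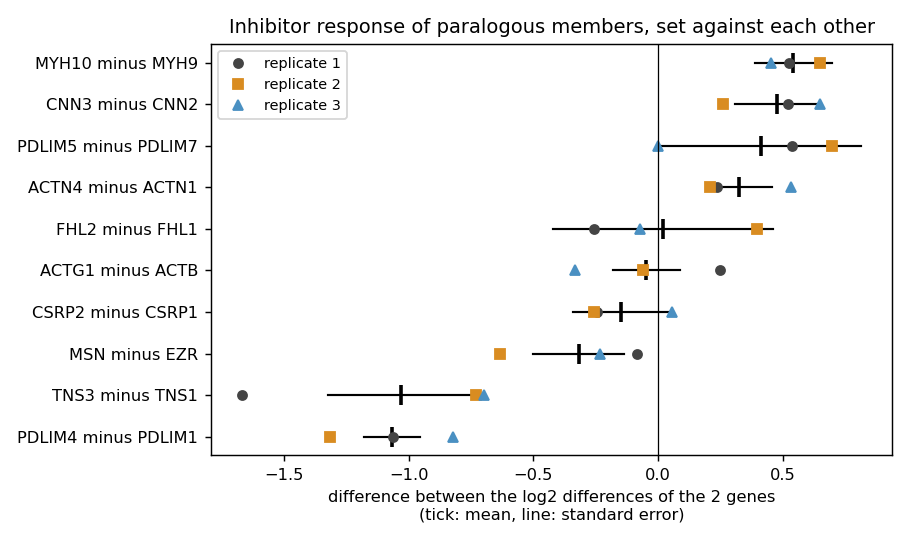
For each of 10 pairs of related members the horizontal axis gives the inhibitor response of the first gene minus that of the second, on the log2 scale, for each replicate number (symbols), with the mean (tick) and its standard error (line). PDLIM4 against PDLIM1 and TNS3 against TNS1 lie lowest, and MYH10 against MYH9 highest.

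A wider list of 114 other genes of actin regulation and adhesion was read in the same way. Of these 93 were on the array and 78 were tested, and 6 rose and 6 fell, 15.4% beside 15.6% of all tested genes. With the block 16 rose and 10 fell, 33.3% beside 31.6%. The median difference was 0.02.

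The rises that passed without the block included those of tropomodulins, which cap the slow-growing ends of actin filaments. TMOD2 read 3.50, 3.48 and 3.48 with DMSO, all at the floor, and 6.76, 5.42 and 5.61 with the inhibitor. It too passed the filter only through 1 group and had to differ, so its rise of 2.45 ± 0.35 is read from the fit with no filter, where it also passed (limma adjusted p 0.0248). TMOD3 rose by 0.87 ± 0.19 (limma adjusted p 0.0279). FERMT1, the kindlin of epithelia (1.29 ± 0.26; 0.0238), SVIL, supervillin, a membrane-bound actin and myosin binder (1.09 ± 0.15; 0.00639), and PPP1R12B, a relative of PPP1R12A (1.08 ± 0.16; 0.00919), rose as well. FERMT1 was dim, at 4.18, 4.34 and 3.51 with DMSO and 5.00, 5.49 and 5.40 with the inhibitor. Its DMSO arrays lay near the floor, which may limit the size of its rise. The probes read for TMOD2, TMOD3, FERMT1 and SVIL can match several transcripts, of the same gene or of others. Dimmer probe sets of the wider list are not reported here.

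Among the falls that passed without the block, that of CRIP1, a small LIM protein, was the largest, from 9.91, 9.95 and 9.78 to 8.21, 8.32 and 8.10, 3.19-fold lower (-1.67 ± 0.11; limma adjusted p 0.000731). LIMK2, the kinase that inactivates cofilin, fell 3.08-fold from 8.26, 7.85 and 8.27 to 6.39, 6.25 and 6.86 (-1.62 ± 0.21; 0.00586). In both genes the groups stood well apart. LIMD1, a zyxin relative (-1.11 ± 0.22; 0.0233), FHL3 (-0.66 ± 0.12; 0.0190) and cortactin, CTTN, which stabilises branched filaments (-0.32 ± 0.07; 0.0335), fell too. MICAL2, which oxidises and disassembles filaments and was singled out after its values were seen, had a larger difference, from 7.64 ± 1.08 to 4.73 ± 1.22 (SD, n = 3), but missed the threshold (-2.91 ± 0.75; limma adjusted p 0.0508, and 0.00248 with the block). The probes read for LIMD1 and MICAL2 can also match several transcripts. On leaving out single arrays, the calls of SVIL, PPP1R12B, CRIP1 and LIMK2 were kept. LIMD1 kept its call only when inhibitor 3 was the array left out and CTTN only when it was inhibitor 2. TMOD3 kept it only when DMSO 2 or inhibitor 3 was left out. FERMT1 lost it when DMSO 1, inhibitor 2 or inhibitor 3 was left out, and FHL3 when DMSO 1 or DMSO 2 was.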

How the data were processed

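The authors deposited GCRMA values, 1 log2 intensity for each probe set on each array. Per the submitters' processing notes GCRMA and Partek 6.4 were used; no settings are stated in the labels, and the log2 scale was inferred from the range of the values. Of 38535 probe sets 96 controls were left out (3 of them for ACTB), and 16567 reached 4 on the log2 scale in 3 or more of the 6 arrays. GCRMA crowds dim values near a floor. Symbols came from the platform annotation, which can be old; the gene identifiers of all 44 members found kept their symbol in a table of assembly GRCg7b. The comparison, inhibitor minus DMSO, used limma (version 3.58.1, R 4.3.3) with lmFit and eBayes with trend, two-sided and without a replicate block, adjusted by Benjamini-Hochberg over the tested probe sets. Errors are standard errors of that fit unless named SD or SE with the block. Those of related pairs come from the pooled SD of the within-array differences. The fit was tested on simulated data with independent noise in each array, so without the likeness of equal replicate numbers seen here.

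The labels call the samples biological replicates without naming their source, so p-values reflect only how far these samples spread, which may be technical. Deviations from the group means correlated at 0.63, 0.67 and 0.45 between arrays of equal replicate number and at -0.45 to -0.14 otherwise. Such deviations cancel within each group, so positive values for equal numbers force negative ones elsewhere, which add no separate evidence. The check of equal numbers, not the labels, is where the pairing comes from. No 2 arrays were identical. The number of arrays limits the precision.

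The members, the other gene lists, the related pairs and the alternatives were chosen with earlier results of these data known. Per-array values are given for members called with or without the block and for ACTB, ACTG1, VCL, TLN1, ZYX, FLNA (here as group means) and MYH9, and further members where space allowed; of the wider list, the 5 largest rises and 5 largest falls among genes called without the block are named, and MICAL2 besides. Alternatives were the replicate block, no filter or a filter at 6, median centring, quantile normalization, no trend, no moderation, the mean of a gene's probe sets, and each array left out.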

Additional observations from a re-analysis of the deposited data

How the results depend on the processing

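The member calls, 2 higher and 4 lower, became 7 and 6 with the replicate block, which changed no other member's call. Higher calls fell to 1 with no filter, no trend or no moderation and, in an alternative chosen after seeing the data, without replicate 2 of both groups; lower calls fell to 2 without moderation. On leaving out single arrays they ranged from 1 to 2 and from 3 to 4. TES kept the call without each single array, as did PDLIM4, which missed without moderation (limma adjusted p 0.0628); MYH10 and MSN did not. TES missed as the mean of its probe sets (0.303). No called member changed sign. Over all probe sets, 1205 higher and 1078 lower became 2470 and 2191 with the replicate block, 666 and 619 with no filter, 516 and 480 without moderation, and 584 and 481 without replicate 2; single arrays left out gave 571 to 894 and 536 to 806. The wider list, 6 and 6, gave 16 and 10 with the replicate block, 4 and 2 with no filter, 3 higher with the filter at 6, 4 lower without trend, 1 and 3 without moderation, and 2 and 3 without replicate 2; single arrays left out gave 3 to 6 and 2 to 5. Median centring moved the median difference by -0.03 and quantile normalization by -0.03, and the split of all calls became 1125 and 1228 with the former. What depth limits here is the signal over background: values under 4 hold little order, which bounds the sizes of GAS2, FHOD3 and TMOD2 and kept FLNA, SYNPO2 and PDLIM3 out of the filtered test; with no filter none of these passed (limma adjusted p 0.507, 0.939 and 0.192). The cause of the lost calls was not tested.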
